A study of Mus musculus with 14 samples.

Results

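The probes described here were already above background in control tissue and were higher at day 14 after tumour inoculation than in any control or day 4 sample. They were chosen from the intensities themselves. A probe had to have a detection p-value (the chance that a negative control bead gives as bright a signal) under 0.05 on all 3 control and all 5 day 14 arrays. Its lowest day 14 value had to lie above its highest control and its highest day 4 value, and its day 14 mean had to be at least 0.5 log2 units above both other means, after 16 was added to each signal and the arrays were quantile-normalised. Of 45281 probes, 5017 passed the detection condition, 335 of these were separated, and 135 met every condition. These 135 member probes were 2.69% of the 5017. The mirror rule, with day 14 below both other groups, found 120 probes.

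Total RNA came from tissue of BALB/C mice aged 8 weeks and was hybridised to 14 bead arrays of 1 colour. By the labels, 3 samples were control tissue, and 6 taken 4 days and 5 taken 14 days after inoculation were tumour microenvironment. The inoculated cells were AB1, a line grown from mouse mesothelioma, a tumour of the lining of the body cavities. The labels name no organ for any sample, do not say whether tumour cells were part of the tissue, and do not say that replicates came from separate animals, so the spread between samples may be partly technical. No other allele or agent is labelled. The number of probes with a detection p-value under 0.05 ranged from 10659 to 11772 on control arrays, from 8257 to 12370 at day 4 and from 7059 to 13867 at day 14. Keratin genes were among the bright probes of the control samples: Krt10 had a mean log2 intensity of 12.74 and Krt14 of 12.48.

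A gene symbol was given for 120 of the 135 probes, and these named 109 genes. The remaining 15 probes had no symbol in the annotation used here. Several of the named genes belong to the response to interferons. Interferon gamma, made by activated lymphocytes, induces the transcription factor Irf1. It also raises guanylate-binding proteins and immunity-related GTPases, which attack membranes around intracellular microbes, as well as chemokines that attract T cells. Other members encode proteins of myeloid cells, lysosomes, the actin cytoskeleton, the extracellular matrix and cell division.

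All 135 probes also had separated groups after model-based background correction, the scale of every value below (log2 intensity after normexp correction and quantile normalisation). Group means of the member probes had a median of 6.32 in control, rising to 6.57 at day 4 and to 8.10 at day 14. Over all 5017 detected probes the same medians were 6.37, 6.34 and 6.41. The margin of a probe, the smaller of its day 14 differences from control and from day 4, had a median of 1.24 log2 units (2.37-fold) and ranged from 0.58 to 7.55. It was at least 1 for 95 probes, at least 2 for 13 and at least 3 for 2. Without background correction the median margin was 0.73, so the sizes depend on that step. These values restate how the probes were chosen and are a description.

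All members were detected in every control sample, as the rule required, at very different levels. Control means ranged from 4.65 to 11.93. The 9 lowest lay below 4.88, the median control mean of all tested probes, and 23 lay above 8. Two-sided limma tests across 14916 probes, with p-values adjusted over all of them, called 134 of the 135 higher at day 14 than in control, against a background of 5.34%, and 135 higher than at day 4, against 8.47%. The rule used both contrasts, so neither count says anything beyond it.

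**Figure D1:**
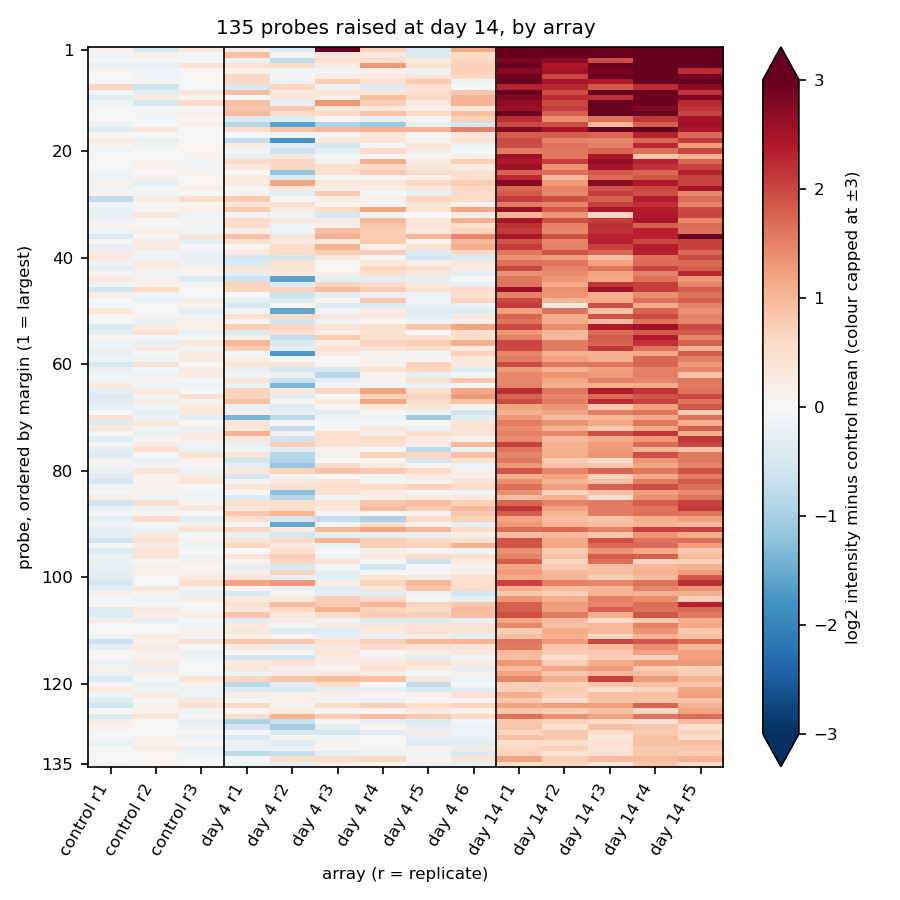
Heat map of the 135 member probes (rows, ordered by margin) on the 14 arrays (columns, r for replicate). Colour is log2 intensity minus the probe's control mean, capped at 3 in both directions, and the day 14 columns are red throughout while day 4 columns are mixed.

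The rise was not equal across the day 14 arrays. The median log2 intensity over the members was 8.07, 7.88, 8.04, 8.15 and 8.15 on day 14 replicates 1 to 5. On control arrays it was 6.29, 6.43 and 6.46. At day 4 it ran from 6.43 to 6.83. Replicate 2 was the lowest of the day 14 arrays for 68 members and replicate 3 for 40, while replicate 5 was the highest for 46 and replicate 4 for 39. Skeletal muscle genes moved the other way: the mean log2 intensity of the 13 measured muscle genes was 9.46 and 9.23 on day 14 replicates 2 and 3, and 7.30, 8.01 and 6.40 on replicates 1, 4 and 5. Replicates 2 and 3 also had the most probes detected of the day 14 arrays, 13867 and 13693, and replicate 5 the fewest, 7059. In bulk tissue, fewer cells of a type and less RNA per cell cannot be told apart. The parts of muscle content and of array detection in the members' values were not tested.

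Choosing the probes again without 1 array, and then looking at that array, gave a check on samples the choice had not used. Of the probes chosen without a given day 14 array, 88.5% to 99.3% lay above every control and day 4 value on the array left out, compared with 15.9% to 22.4% of all detected probes. The lowest share, 88.5%, was for replicate 2. Of those chosen without a given control array, 95.6% to 100% had that control value below every day 14 value, against 27.5% to 33.3% of all detected probes. For day 4 arrays the share was 91.8% to 99.3%, against 29.6% to 40.5%. Normalisation still used all 14 arrays, including the one left out.

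The member with the largest margin has no gene name here. Probe ILMN_1255287, singled out after its values were seen, had log2 intensities of 5.30, 4.70 and 5.45 in control. Its day 4 values had a lowest of 4.69, a median of 5.59 and a highest of 8.19. On the day 14 arrays it read 13.45, 12.93, 13.20, 13.72 and 13.72. Day 14 was 305-fold above control, the largest fold among the members, and 90.6-fold without background correction. Day 4 replicate 3 stood above the other day 4 arrays.

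Among the named members, interferon-inducible genes had several of the largest margins. The interferon list held 9 measured genes, and 5 of them, Cxcl9, Oasl2, Irf1, Gbp2 and Cd274, had a member probe (55.6%, against 2.17% of the 5033 named genes measured). Cxcl9, a chemokine that recruits T cells through the receptor CXCR3, had the largest margin of any named gene. Its log2 intensities were 4.95, 5.14 and 4.96 in control. At day 4 they had a lowest of 4.58, a median of 5.39 and a highest of 5.92. On day 14 replicates 1 to 5 they were 9.66, 8.57, 9.73, 9.71 and 8.23. Replicates 2 and 5 were the low ones of the day 14 group, and the day 14 mean was 17.9-fold above control and 14.5-fold above day 4.

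Irf1, the transcription factor that carries much of the interferon gamma response, had 2 member probes. The brighter probe read 7.12, 7.08 and 7.02 in control, from 7.21 to 7.89 at day 4 with a median of 7.44, and 9.64, 9.14, 10.01, 9.84 and 9.24 at day 14. Its day 14 mean was 5.66-fold above control. The dimmer probe, ILMN_2599782, was 3.14-fold above control. Both Irf1 probes were lowest on day 14 replicate 2 among the day 14 arrays.

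Gbp2 and Gbp2b encode guanylate-binding proteins, and Igtp (also called Irgm3) and Irgm1 encode immunity-related GTPases. Gbp2 had control values of 6.31, 6.26 and 6.48 and day 4 values from 6.94 to 7.32 with a median of 7.08. Its day 14 values were 9.44, 8.16, 9.83, 9.80 and 8.38, so replicates 2 and 5 were again the low ones. Gbp2b read 5.93, 5.73 and 6.33 in control, 6.29 to 6.91 at day 4 with a median of 6.45, and 9.05, 7.92, 9.33, 9.38 and 8.17 at day 14. The Gbp2 and Gbp2b genes are neighbours and related in sequence, and whether their probes share signal was not tested. Igtp read 4.78, 4.67 and 4.82 in control, 4.83 to 5.38 at day 4 with a median of 5.09, and 7.65, 6.76, 8.30, 8.00 and 7.60 at day 14, a mean 7.50-fold above control. Irgm1 was 4.67-fold above control. A further Irgm1 probe, ILMN_2804037, which is no member, was much brighter, at a mean of 9.95 in control, and rose by 0.64 to day 14 without passing the test (limma adjusted p = 0.126).

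The 250 bases before the start of 4 of these genes are printed. They were taken from the 20 named members with the largest margins, and only promoters with a match to a motif named below were printed. Each therefore holds, by that choice, a motif that transcription factors of the interferon pathway are known to bind. All members rise at day 14 by the rule, so the shared rise did not pick these 4. The promoter of Cxcl9 held neither motif searched for here. Capitals mark matches to the interferon-stimulated response element (ISRE, bound by IRF factors) and to TTCNNNGAA (the gamma-activated site). Both strands were searched. Sequences are from RefSeq, build GRCm38.p6, 5′ to 3′.
Igtp, chr11:58199306-58199555, plus strand: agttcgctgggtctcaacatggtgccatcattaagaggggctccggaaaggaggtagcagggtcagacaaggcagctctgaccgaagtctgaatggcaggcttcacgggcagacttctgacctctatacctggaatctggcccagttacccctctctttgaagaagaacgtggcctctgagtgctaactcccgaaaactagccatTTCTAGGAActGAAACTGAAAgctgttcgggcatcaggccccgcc
Gbp2b, chr3:142594597-142594846, plus strand: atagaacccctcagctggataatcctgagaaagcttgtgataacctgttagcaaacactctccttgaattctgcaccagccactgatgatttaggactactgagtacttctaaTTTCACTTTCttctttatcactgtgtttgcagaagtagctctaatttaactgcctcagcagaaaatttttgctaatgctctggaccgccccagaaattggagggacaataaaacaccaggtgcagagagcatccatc
Gbp2, chr3:142620413-142620662, plus strand: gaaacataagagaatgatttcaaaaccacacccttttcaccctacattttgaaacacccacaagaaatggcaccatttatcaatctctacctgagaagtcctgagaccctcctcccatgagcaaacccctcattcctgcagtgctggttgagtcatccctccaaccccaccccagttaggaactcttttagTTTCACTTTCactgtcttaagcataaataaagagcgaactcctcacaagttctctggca
Irf1, chr11:53769764-53770013, plus strand: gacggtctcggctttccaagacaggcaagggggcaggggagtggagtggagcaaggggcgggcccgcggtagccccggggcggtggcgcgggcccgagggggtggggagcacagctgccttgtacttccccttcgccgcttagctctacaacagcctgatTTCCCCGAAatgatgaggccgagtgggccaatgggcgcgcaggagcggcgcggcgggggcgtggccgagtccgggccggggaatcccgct
In Igtp the TTCNNNGAA match begins at position -45 from the gene's start and the ISRE at -34. The ISRE begins at -137 in Gbp2b and at -59 in Gbp2. In Irf1 the TTCNNNGAA match begins at -90.

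A promoter was given for 84 of the 109 member genes. An ISRE lay within 250 bases before the start of 6 of them, Igtp, Gbp2b, Gbp2, Irgm1, Cytip and Ifitm2 (7.14%, against 3.11% of 4078 measured genes and 3.46% of 27025 genes). The median margin of these 6 genes was 1.84, and that of the remaining member genes with a promoter was 1.18. Members were chosen by the differences that make up the margin, so these medians are a description. A link between the motif and the rise was not tested. TTCNNNGAA, a motif added after the members had been seen, was in 8.33% of member promoters, against 6.99% of measured and 8.13% of all genes. The member genes with it were Igtp, Irf1, Sec61g, Ppp1r18, Socs3, Gon4l and Cers2. CCGGAAGT, the letters bound by ETS factors, was in the promoter of 1 member gene, Vmp1 (1.19%, against 7.28% of measured genes). A match describes letters only.

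Further interferon-related members followed the same pattern. Oasl2, of the oligoadenylate synthetase family of antiviral proteins, read 5.28, 4.92 and 6.00 in control, 5.18 to 6.70 at day 4 with a median of 6.20, and 8.07, 7.37, 8.71, 8.78 and 7.67 at day 14. Cd274, which encodes the T cell inhibitory ligand PD-L1, read 5.86, 6.41 and 5.90 in control, 5.93 to 6.79 at day 4 with a median of 6.50, and 7.54, 6.91, 7.87, 7.85 and 7.02 at day 14. The gap between the highest day 4 and the lowest day 14 value was therefore narrow for Cd274. Ifitm1, Ifitm2 and Ifitm3, adjacent genes for membrane proteins that restrict virus entry, were 3.76-fold, 2.53-fold and 4.03-fold above control at day 14. Their sequences are alike, so signal shared between the Ifitm probes was not tested. A dimmer Ifitm1 probe, ILMN_1214071, is no member. At day 14 it was 0.56 above control without passing (limma adjusted p = 0.0803) and 0.68 above day 4 (adjusted p = 0.00761). Ly6e was 3.84-fold, Parp14 3.19-fold and Socs3, a feedback inhibitor of cytokine signalling, 2.90-fold above control.

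The interferon genes ranked the day 14 arrays differently from the members as a whole. The median of the 6 member probes of the interferon list was 8.75, 7.77, 9.22, 9.24 and 7.95 on day 14 replicates 1 to 5, against 5.57, 5.70 and 5.95 in control and 6.15 to 6.49 at day 4. Replicate 5, the highest day 14 array for 46 members, was the second lowest here. Of the 4 measured interferon genes without a member probe, Gbp3 and Rsad2 were higher at day 14 than in control (adjusted p = 0.00037 and 0.0083, limma) and than at day 4 (adjusted p = 0.000145 and 0.0169). Irf9 and Usp18 passed neither test, with differences from control of 0.41 and 0.92. Over all 5033 named genes, 9.14% were called higher at day 14 than in control and 13% higher than at day 4.

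**Figure D2:**
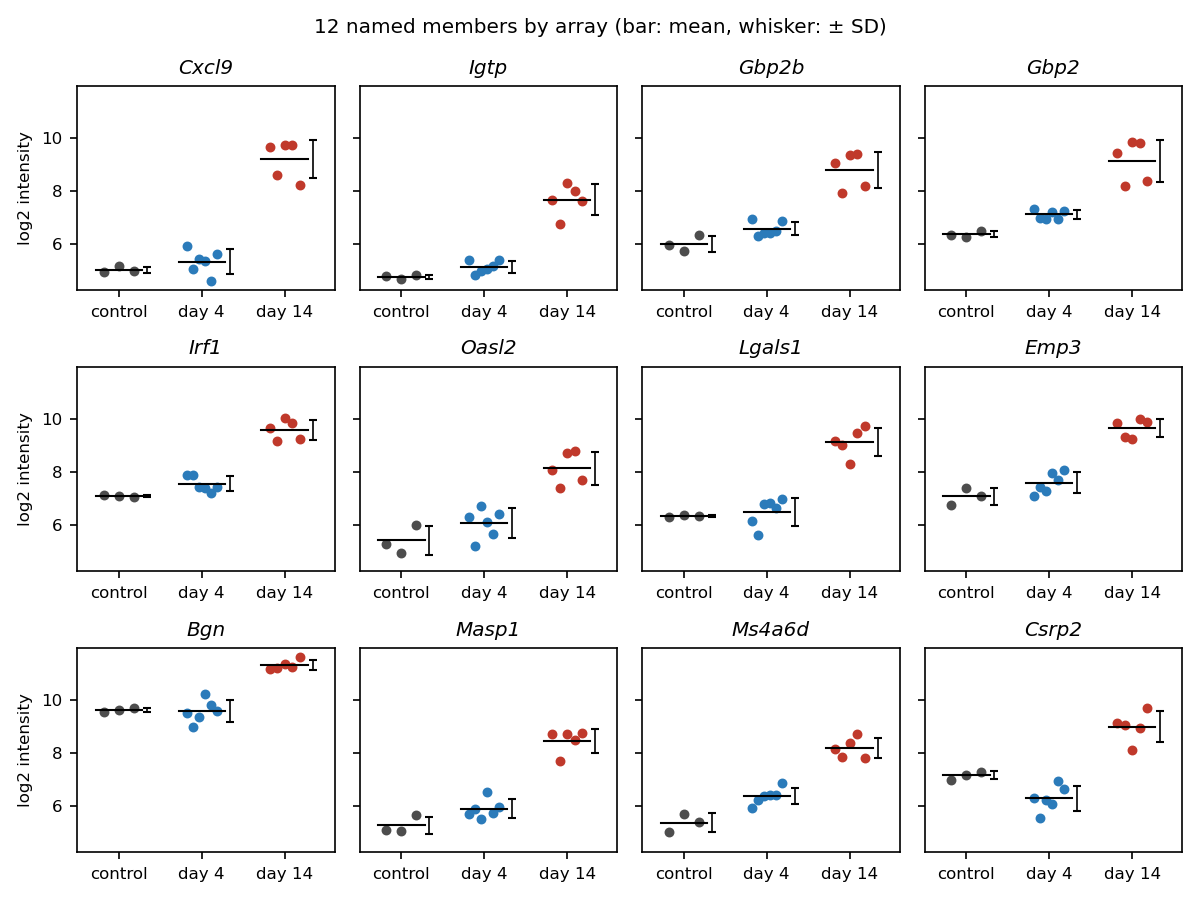
Log2 intensity of 12 named members on every array, in control (n = 3), day 4 (n = 6) and day 14 (n = 5), with the group mean as a bar and the SD as a whisker. In every panel the day 14 points lie above all others, and for the interferon-related genes Cxcl9, Igtp, Gbp2b, Gbp2, Irf1 and Oasl2 replicates 2 and 5 (points run from replicate 1 at the left) are the lowest of the day 14 arrays.

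How many genes of a list passed depended on how arrays were scaled. Counting members too, limma called 7 of the 9 interferon genes higher at day 14 than in control, and 5 with arrays scaled to a common median. The same pair of counts was 11 and 2 of 13 for antigen presentation, 8 and 2 of 10 for leukocytes, 9 and 3 of 18 for lysosomes, and 10 and 1 of 24 for actin. For the matrix list it was 7 and 2 of 24. The cell cycle list went from 5 to 1 of 14, and it also depended on single arrays, with 1 called without control replicate 3, 2 without control replicate 1 or 2, day 4 replicate 5, or day 14 replicate 1 or 4, and 3 without day 4 replicate 3 or 4 or day 14 replicate 5. Without control replicate 1, 5 leukocyte genes were called. No gene of these 7 lists was called lower than in control under either scaling, against 1003 and 47 of the 14916 tested probes. Higher calls over the same probes also fell, from 797 to 153 with the common median. The rule used this difference, so calls of genes with a member probe largely restate the choice.

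Antigen presentation was represented by Psmb10, a subunit of the immunoproteasome that cuts antigens for MHC class I, and Cd74, the invariant chain of MHC class II. The brighter Psmb10 probe read 5.28, 5.46 and 5.30 in control, 5.63 to 5.99 at day 4 with a median of 5.76, and 7.89, 6.69, 7.82, 7.53 and 7.38 at day 14. Psmb10's other member probe was 3.39-fold above control. Cd74 read 8.08, 8.51 and 8.86 in control, 8.30 to 9.44 at day 4 with a median of 9.22, and 9.93, 9.58, 10.50, 9.75 and 9.50 at day 14, so its day 4 and day 14 values nearly touched. Other Cd74 probes were not members. At day 14, ILMN_3089584 was 1.43 above control and 0.70 above day 4 (limma adjusted p = 0.00181 and 0.0375). The much dimmer ILMN_1247832 was 0.71 and 0.21 above them and passed neither test (adjusted p = 0.0695 and 0.606). The antigen presentation list had 11 measured genes without a member probe. Of these, 9 were called higher at day 14 than in control and 5 higher than at day 4 (9.14% and 13% of named genes were). None of the 11 was called lower in either test (9.6% of named genes were lower than in control and 14.2% lower than at day 4). Among them, H2-D1, an MHC class I heavy chain, and H2-DMb1, which helps load MHC class II, had already risen by day 4 (1.08 and 1.12 log2 units above control, limma adjusted p = 0.00383 and 0.011), a call made for 3.7% of named genes.

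Myeloid and leukocyte genes formed another group. Of 10 measured genes on the pan-leukocyte and myeloid list, 5 had a member probe (50%, against 2.17% of named genes). They were Lyz2, Lyz1, Laptm5, Fcgr3 and Coro1a. Lyz2, the lysozyme of macrophages, read 6.28, 6.45 and 6.24 in control, 6.43 to 7.41 at day 4 with a median of 6.92, and 8.73, 8.40, 8.95, 8.64 and 8.06 at day 14. Lyz1 was brighter, at 9.92, 10.14 and 10.16 in control and 12.55, 12.00, 12.18, 12.55 and 11.53 at day 14. Lyz1 and Lyz2 are adjacent near-copies, so a split of signal between them is uncertain. A second Lyz1 probe, ILMN_2736867, was at 5.50 in control and 5.26 at day 14 and passed no test (limma adjusted p = 0.715). A further Lyz2 probe, ILMN_2939681, is no member and was brighter than the member probe in control, at 7.09. It was 1.46 above control and 0.86 above day 4 at day 14 (limma adjusted p = 0.00921 and 0.0484).

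Laptm5, a lysosomal membrane protein of blood cells, was 3.98-fold above control at day 14. Fcgr3, an activating receptor for IgG, was 3.28-fold, and Coro1a, an actin-binding protein of leukocytes, was 3.14-fold above it. Ms4a6d, a membrane protein found on macrophages, read 5.01, 5.70 and 5.38 in control, 5.89 to 6.85 at day 4 with a median of 6.38, and 8.15, 7.83, 8.35, 8.69 and 7.78 at day 14. Its 3 groups did not overlap at all. Of the 5 list genes without a member probe, Aif1, Adgre1 and Csf1r were called higher at day 14 than in control (2.72, 1.75 and 0.65 log2 units, limma adjusted p = 7.33e-06, 0.016 and 0.0304), and Aif1 alone of the 5 also higher than at day 4 (adjusted p = 3.85e-06). For all named genes these calls were made for 9.14% and 13%.

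No gene of the lymphocyte lists was a member. With 2.17% of named genes having a member probe, a 0 in lists this short shows no shortage. Of 4 measured genes on the T and NK cell list, Cd3e was called higher at day 14 than in control by 0.99 log2 units (limma adjusted p = 0.0189), a call made for 9.14% of named genes. Cd8b1, Prf1 and Foxp3 differed by -0.09, -0.51 and -0.41 and passed no test. The list's mean log2 intensity ran from 6.25 to 6.50 on control and from 6.12 to 6.65 on day 14 arrays. Of the neutrophil list, no gene had a named probe in the annotation used here. The part of any cell type's content in the members' values was not tested.

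Of 8 measured genes of the chemokine and cytokine list, 1, Ccl8, had a member probe (12.5%, against 2.17% of named genes). Among the 7 without one, limma called 4 higher at day 14 than in control and 4 higher than at day 4. Over all named genes these calls were made for 9.14% and 13%. Ccl8, a monocyte-attracting chemokine, read 6.09, 6.34 and 5.80 in control, 6.17 to 7.04 at day 4 with a median of 6.47, and 7.97, 7.53, 8.41, 8.08 and 8.13 at day 14. Casp1, the inflammasome protease, was 2.13-fold and its substrate Gsdmd, a pore-forming protein, 3.16-fold above control. Plac8, a small cysteine-rich protein of immune cells, read 4.82, 4.58 and 4.79 in control and 7.45, 7.23, 7.55, 7.76 and 6.96 at day 14. Its day 4 values, 4.52 to 5.45 with a median of 4.72, lay around those of control. Masp1, a protease of the lectin complement pathway, was 9.18-fold above control, with day 14 values of 8.69, 7.67, 8.70, 8.47 and 8.74 and control values of 5.09, 5.04 and 5.64.

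Matrix and stromal members included Bgn, Serpinh1, Pdgfra and Vim. Bgn, which encodes the collagen-binding proteoglycan biglycan, was bright throughout: 9.52, 9.60 and 9.67 in control, 8.98 to 10.19 at day 4 with a median of 9.53, and 11.16, 11.19, 11.35, 11.24 and 11.60 at day 14. Serpinh1, the collagen chaperone, was 2.24-fold above control. A much dimmer Serpinh1 probe, ILMN_2822850, was 0.67 log2 units above control at day 14 without passing (limma adjusted p = 0.162). Pdgfra, a growth factor receptor of fibroblasts, was 3.12-fold above control, and Vim, an intermediate filament of mesenchymal cells, 3.47-fold. The remaining fibroblast genes did not move with them. Of 6 without a member probe, none was called higher at day 14 in either test, Acta2 fell below control (-0.92, limma adjusted p = 0.00998), and 3 were called lower than at day 4. Of 22 matrix genes without a member probe, 5 were called higher and 0 lower than in control, and 3 higher and 4 lower than at day 4. Named genes as a whole had 9.14% called higher and 9.6% lower than in control, and 13% higher and 14.2% lower than at day 4. Col1a1, a chain of type I collagen, was 0.34 log2 units below control at day 14 without passing (-0.34, limma adjusted p = 0.448).

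Several secreted signals and receptors had large margins. Inhba, the activin A subunit, read 4.87, 4.84 and 4.92 in control, 4.44 to 5.57 at day 4 with a median of 4.75, and 7.10, 6.24, 6.52, 7.01 and 7.35 at day 14. Slit2, a guidance cue acting through Robo receptors, was 3.32-fold above control. F2r, the thrombin receptor PAR1, read 7.65, 7.61 and 7.59 in control, 7.48 to 7.97 at day 4 with a median of 7.62, and 9.43, 9.43, 9.36, 9.92 and 9.33 at day 14. Both groups before day 14 were tight for F2r. Amigo2, an adhesion protein first described in neurons, was 7.18-fold above control. Sema5a, a semaphorin, and Dkk3, of the Dickkopf family, each had 2 member probes. These were 2.44-fold and 2.19-fold above control for Sema5a, and 2.44-fold and 2.35-fold for Dkk3.

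The actin cytoskeleton list had 24 measured genes, of which 6 had a member probe (25%, against 2.17% of named genes). Lgals1, which encodes galectin-1, a sugar-binding protein linked to immune regulation and adhesion, had the second largest margin of the named genes. It read 6.29, 6.35 and 6.32 in control, 5.59 to 6.96 at day 4 with a median of 6.70, and 9.14, 9.0, 8.30, 9.47 and 9.71 at day 14. Replicate 3 was its lowest day 14 array. Csrp2, a LIM protein bound to actin, read 6.98, 7.16 and 7.28 in control, 5.54 to 6.92 at day 4 with a median of 6.24, and 9.13, 9.05, 8.10, 8.93 and 9.70 at day 14. Every day 4 value of Csrp2 was below every control value.

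Actb, the cytoplasmic actin often used to scale other genes, was a member at 10.49, 10.45 and 10.14 in control, 9.86 to 10.45 at day 4 with a median of 10.07, and 11.17, 11.10, 11.40, 11.40 and 11.43 at day 14. A further Actb probe, ILMN_2617433, was 1.11 higher at day 14 than in control (limma adjusted p = 0.00134). Another, ILMN_1377923, differed by -1.64 without passing (adjusted p = 0.205), so the Actb probes disagreed. Tmsb4x, an actin-sequestering peptide, was 1.90-fold above control. Arpc1b, a subunit of the Arp2/3 complex that branches actin, had 3 member probes at 2.62-fold, 2.31-fold and 1.97-fold above control. Of 18 actin genes without a member probe, 4 were called higher and 0 lower than in control, and 6 higher and 1 lower than at day 4. For all named genes the shares were 9.14% higher and 9.6% lower than in control, and 13% higher and 14.2% lower than at day 4.

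Lysosomal members were Lgmn, Cd63 and Gusb. Lgmn, an asparaginyl endopeptidase, read 5.62, 5.71 and 5.82 in control, 4.55 to 6.50 at day 4 with a median of 6.22, and 7.49, 7.38, 7.58, 7.43 and 8.03 at day 14. Cd63, a tetraspanin of late endosomes, had 2 member probes at 2.93-fold and 2.35-fold above control. Gusb, the lysosomal beta-glucuronidase, was 3.32-fold above it. Of 15 lysosomal genes without a member probe, 6 were called higher than in control and 6 higher than at day 4, and none lower. Over all named genes, 9.14% were called higher and 9.6% lower than in control, and 13% higher and 14.2% lower than at day 4.

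Cell division was represented by Ccnd1 and Tuba1b of the cell cycle list, and by Prc1, Cenpa and Anln, which that list does not hold. Prc1, which bundles microtubules of the central spindle, read 6.93, 6.41 and 6.59 in control, 4.87 to 7.10 at day 4 with a median of 6.88, and 8.61, 8.13, 8.09, 8.36 and 8.74 at day 14. Cenpa, the centromeric histone, read 7.35, 6.76 and 6.59 in control and 8.19, 7.83, 7.90, 8.07 and 8.55 at day 14. Day 4 values of Cenpa were 5.53 to 6.75 with a median of 6.36. Anln, the contractile ring protein anillin, was 2.65-fold above control at day 14. Ccnd1, cyclin D1, had 2 member probes, at 2.85-fold and 2.23-fold above control. No gene of the cell cycle list was called in either direction at day 4 against control. Of all named genes 3.7% were called higher and 3.04% lower there, so a 0 in a list of 14 is near that share. Of the 12 cell cycle genes without a member probe, 3 were called higher at day 14 than in control and 8 higher than at day 4 (9.14% and 13% of named genes were).

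The brightest members in control were both Fth1 probes, for the ferritin heavy chain, at means of 11.93 and 11.64, then Tubb5, Actb and Tmsb4x. Their margins were small, from 0.62 for Tubb5, a tubulin, to 0.94 for Actb. The smallest margin of any named member was 0.58, for a Rps12 probe, of the small ribosomal subunit.

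**Figure D3:**
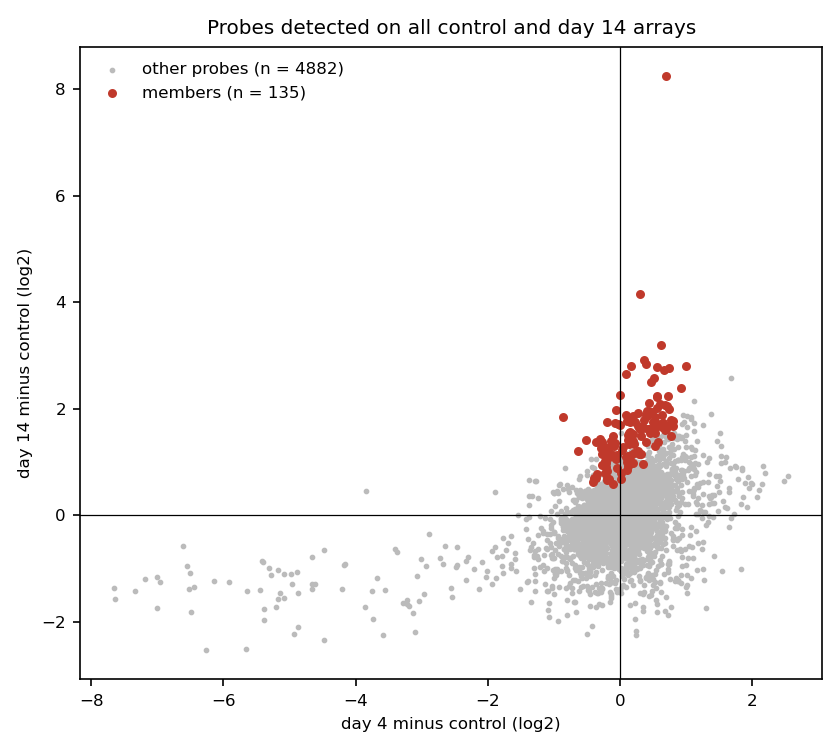
Day 14 minus control against day 4 minus control, both in log2 units, for 5017 probes detected on all control and day 14 arrays, with the 135 members in red. The members spread from -0.87 to 0.99 on the day 4 axis, and the point at 8.25 on the day 14 axis is the unnamed probe ILMN_1255287.

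The comparison of day 4 with control was not set directly by the rule, although a probe much above control at day 4 would be less likely to qualify. Limma called 8 of the 135 members higher at day 4 than in control (5.93%, against 1.83% of all tested probes and 3.55% of the 5017 detected ones). It called 0 lower (2.91% of all tested probes were), with 33 higher and 4 lower at an unadjusted p under 0.05. The 8 were Ms4a6d, Epb41l3, Samd9l, Anxa5, Vim, Arhgdib, Ppp1r18 and the unnamed probe ILMN_2536676. Ms4a6d had the largest of these differences, 0.99 ± 0.22 (SE) log2 units (adjusted p = 0.0145). Anxa5, a phospholipid-binding annexin, was next by adjusted p, with 0.78 ± 0.18 (adjusted p = 0.0182). Epb41l3, a membrane skeleton protein, differed by 0.93 ± 0.25 (adjusted p = 0.0404), and Samd9l, an antiviral protein, by 0.80 ± 0.22 (adjusted p = 0.0431). Control replicate 1 had the lowest control value for each of the 8, and without that array limma called 0 members, with 13 higher and 1 lower at an unadjusted p under 0.05. With arrays scaled to a common median, limma again called 0, with 0 higher and 2 lower at an unadjusted p under 0.05, and the members' median difference was -0.01.

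Over all 135 members, day 4 was above control for 94 (69.6%, against 53.8% of all tested probes), with a median difference of 0.19 against 0.02. The lowest differences belonged to Csrp2 (-0.87 ± 0.29, limma adjusted p = 0.115), Cenpa (-0.64 ± 0.27, adjusted p = 0.222), Anln (-0.52), Tubb5 (-0.41) and Septin11 (-0.37). None of these 5 passed. Osr2, a transcription factor, was 0.81 above control at day 4 and did not pass (adjusted p = 0.0924).

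At day 4, 114 of the 135 members were detected on all 6 arrays (84.4%, against 84.8% of the 5017 probes), 13 on 5, 6 on 4, 1 on 3 and 1 on 1. Day 4 replicate 2 detected 117 members and the other day 4 arrays 129 to 134. That array also had few probes detected in all, 8257.

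Other probes of the same genes were measured on the same arrays and had not been chosen. Among 20 member genes, 26 such probes were tested. At day 14, 16 were called higher than in control (61.5%, against 8.7% of probes with 1 gene symbol), 15 higher than at day 4 (57.7%, against 12.3%) and 13 higher in both. Limma called none of them lower, against 9.07% and 13.6% of such probes. Their median difference was 0.92 from control and 0.68 from day 4. Fxyd5, a regulator of the sodium pump, had a second probe, ILMN_2967266, at 2.02 above control (adjusted p = 1.4e-05), and the further Emp3 probe, ILMN_1248028, was 1.98 above it (adjusted p = 0.000436). Emp3, an epithelial membrane protein family member, had member probe values of 6.74, 7.37 and 7.09 in control and 9.83, 9.31, 9.23, 9.98 and 9.86 at day 14.

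Skin and adipocyte genes differed between groups too, by an amount that depended on the scaling. Limma called 9 of 10 measured skin epithelium genes lower at day 14 relative to control (9.6% of named genes were) and 6 lower relative to day 4 (14.2% were). With median scaling 0 and 4 of the 10 were called lower. The skin list's mean log2 intensity was 9.61 to 10.01 on control, 9.27 to 9.74 on day 4 and 8.40 to 9.11 on day 14 arrays. Of 5 adipocyte genes, 3 were called lower than in control and 5 lower than at day 4, and with median scaling 0 and 1. No gene of the skin, adipocyte or muscle lists was a member. Only 2.17% of named genes had a member probe, so a 0 in lists of these sizes shows no shortage. The part of tissue makeup in the members' rise was not tested. Among all tested probes, 44.3% of the 1800 calls between day 14 and control were higher at day 14, and with median scaling 76.5% of 200. Between day 14 and day 4, 49.7% of 2542 calls were higher, and with median scaling 83.2% of 653. Between day 4 and control, 38.6% of 707 calls were higher at day 4, with median scaling 1.07% of 187, and without the filter on dim probes 19.8% of 393.

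**Figure D4:**
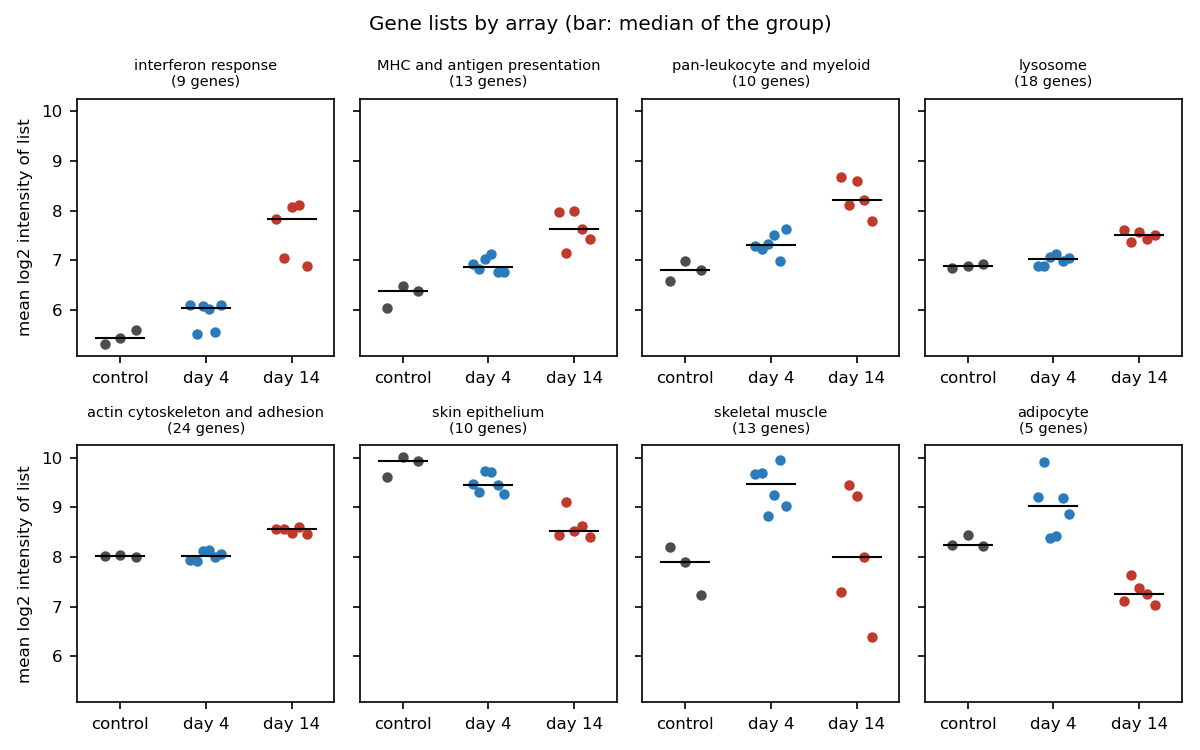
Mean log2 intensity of 8 gene lists on each array, with the group median as a bar. Interferon, antigen presentation, leukocyte, lysosome and actin lists are higher on all 5 day 14 arrays than on any control array, while the skin and adipocyte lists are lower and the muscle list spreads from 6.40 to 9.46 at day 14. The lists that are higher include members, which the rule placed above control at day 14. Of the interferon list 5 of 9 genes had a member probe, and of the leukocyte list 5 of 10. Their separation is therefore partly set by the rule and is a description.

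Probes close to the threshold of 0.5 show how the rule divided similar patterns. On the scale of the rule, the 3 members nearest to it were Tmsb10 (probe ILMN_3145331, 0.508), Coro1a (0.509) and Gon4l (0.515). Just outside lay Nsmce1 (0.496), Tbc1d10c (0.491) and Trio (0.488).

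Member genes lay on every chromosome for which named genes were measured except the mitochondrial one. Chromosome 7 held 16 of the 109 (14.7%, against 7.44% of measured genes), chromosome 5 held 14 (12.8%, against 6.49%) and chromosome 15 held 11 (10.1%, against 4.10%). Adjacent member genes were Gbp2b and Gbp2 on chromosome 3, Lyz2 and Lyz1 on chromosome 10, Ifitm2, Ifitm1 and Ifitm3 on chromosome 7, and Sema5a and Sdc2 on chromosome 15, with 0 protein-coding genes between each pair in RefSeq's table.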

How the data were processed

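Probe intensities on a linear scale and detection p-values for 45281 probes on 14 arrays were used as deposited, without normalization, per the file headers. The exporting software is not stated there. The authors' value table, in log2 units with its normalization unstated, held 7016 probes and was used as an alternative. Its columns for control replicates 1 and 2 each matched the other's intensities best (r = 0.9999 and 0.998), and names here follow the intensity table.

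Intensities were corrected with limma 3.58.1 in R 4.3.3 (normexp with negative controls inferred from detection p-values, offset 16), quantile-normalised and log2-transformed. Probes detected on at least 3 arrays (14916) were fitted with 3 group means over all 14 arrays (lmFit, eBayes), with Benjamini-Hochberg adjustment over all of them and a threshold of 0.05. The procedure was tested on simulated data. The number of arrays limits precision. SE is from that fit and SD from the arrays of a group.

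GEO's platform annotation gave 1 gene symbol for 6083 of the 7016 probes of the value table, several for 3 and none for 930. Probes outside that table are unnamed here. A list's gene was read from its probe with the highest mean. Promoters and chromosomes are RefSeq's, build GRCm38.p6.

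The members and the 28 gene lists were chosen with earlier results of these data known. Named members were the 20 with the largest margins, up to 4 per list, the 5 brightest in control, the 5 highest and 5 lowest in day 4 minus control, genes with several member probes and the 3 probes on each side of the threshold. Other names were chosen after their values were seen. Replicate numbers shared between groups correlated from -0.30 to 0.25 and were not treated as pairs. Alternatives were other background steps, scalings, filters and weights, and leaving out each array.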

Additional observations from a re-analysis of the deposited data

Results flagged for a closer look

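In 134 groups of values (67 measures at day 4 and at day 14) an array was looked for that stood apart from the rest of its group by Dixon's test, which chance alone gives in about 1 of 20 groups, and 7 were found. Day 4 replicate 2 detected 117 members, where its group otherwise ranged from 129 to 134. That array was low for Arpc1b probe ILMN_1227836, at 4.85 against 5.59 to 6.04, and for Tmsb10 probe ILMN_3145331, at 4.33 against 5.42 to 6.01. Day 4 replicate 5 was low for Irf1 probe ILMN_2599782, at 4.64 against 5.22 to 5.53. At day 14, replicate 2 was low for Masp1, at 7.67 against 8.47 to 8.74, and replicate 4 was high for F2r, at 9.92 against 9.33 to 9.43. Day 14 replicate 5 was high for Cd63 probe ILMN_2653617, at 8.83 against 7.78 to 8.05.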

How the results depend on the processing

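Every margin of the fitted members stayed above 0 under each of the 22 alternative settings of the fit. Members were chosen by these same differences, so that sign was largely set by the choice and is a description. The number of probes that met the rule was 135, and 50 with median scaling (44 of them members), 276 with normexp values (all 135 among them), 28 with a difference of at least 1 and 273 with at least 0.25. Leaving out 1 array gave 134 to 165. Members called between day 4 and control, 8 in all, numbered 2 without background correction, 0 with median scaling, 18 with cyclic loess, 0 without the filter on dim probes (31 higher and 4 lower at an unadjusted p under 0.05), 3 in the authors' matrix values, 14 with array weights and 2 with a replicate block, and 0 to 8 without 1 array, with the 0 for control replicate 1. Over all tested probes, day 4 against control had 707 calls, 187 with median scaling, 393 without the filter, 1131 with array weights, 479 with the replicate block and 269 to 910 without 1 array. Day 14 against control had 1800, 200 with median scaling, 1148 without the filter and 1111 to 2004 without 1 array. Day 14 against day 4 had 2542, 653 with median scaling and 2108 to 2504 without 1 array. Control replicate 1 gave the lowest of these counts for both comparisons with control. Median scaling moved the median of all probes between day 14 and day 4 to 0.11 log2 units. The members' median difference between day 4 and control turned from 0.19 to -0.01 with that scaling, and the share of higher calls between day 14 and control rose from 44.3% to 76.5%. The causes were not tested. Dim probes limit the folds: members near 4.6 in control are close to background, so their folds rest on the background correction.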

Other observations

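Over all named genes, 2.17% had a member probe, so a count of 0 in lists of the sizes below shows no shortage. Of 21 measured genes of the unfolded protein response and endoplasmic reticulum, 0 had a member probe. Limma called 9 of them higher at day 14 than at day 4 (13% of named genes were) and 3 higher than in control (9.14% were). Of 22 proteasome genes, 7 were called higher than at day 4 and 3 higher than in control, none of them a member. Of 18 ribosome and translation genes, 7 were called higher than at day 4 and 1, Eif4ebp1, higher than in control. Eif4ebp1, which encodes a repressor of cap-dependent translation, was the member of that list, at 6.70, 6.19 and 6.46 in control and 7.64, 7.37, 7.03, 7.24 and 7.54 at day 14. Oxidative phosphorylation genes, 17 measured, had 0 members, with 1 gene called higher and 1 lower at day 14 than at day 4, and 1 lower than in control.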
